A study of Homo sapiens with 16 samples.

Results

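The S100 proteins and annexins are 2 families of calcium-binding proteins, and 10 of their genes were followed here: S100A4, S100A6, S100A8, S100A9, S100A10, S100A11, S100A12, S100P, ANXA1 and ANXA2. They were taken by symbol, and each matched 1 of the 62700 genes in the count table. OCI-AML3, an established cell line from human acute myeloid leukaemia, was studied by RNA-seq under 5 conditions. Cells were untreated (4 libraries), or received all-trans retinoic acid (ATRA, 0.1 µM, 3 libraries) or AM80 (tamibarotene, 0.1 µM, 3 libraries). In the other conditions each retinoid was combined with a pair of inhibitors, GSK-LSD1 at 0.1 µM plus MB3 at 100 µM (3 libraries for each combination). The treatments lasted 3 h, and no time is given for the untreated cells. ATRA activates all retinoic acid receptors, AM80 is a synthetic retinoid selective for RARA, GSK-LSD1 inhibits the histone demethylase LSD1 and MB3 inhibits the histone acetyltransferase GCN5. No group received the inhibitors without a retinoid, so the effect of adding them could be measured only on top of ATRA or AM80, and the effect of one inhibitor could not be separated from that of the other.

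S100 proteins are small EF-hand proteins that bind calcium and then grip partner proteins, and several of them are also released from myeloid cells as danger signals. S100A8 and S100A9 form calprotectin, the most abundant cytosolic protein of neutrophils and a marker of myeloid maturation, and S100A12 is its close relative. Annexins bind phospholipid membranes in the presence of calcium. ANXA2 joins S100A10 in a complex at the cell surface that binds plasminogen and its activator, and this complex is known for its part in the bleeding of promyelocytic leukaemia, while ANXA1 is released by myeloid cells and signals through formyl peptide receptors to dampen inflammation.

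Values are the deposited normalized counts, that is, reads per gene divided by a size factor for each library. Libraries held between 11963898 and 33789718 reads. The 6 retinoid target genes listed as a check of the labels were all higher in every treated group. TGM2, which codes for a transglutaminase, went from 84.1 ± 8.93 (SD, n = 4) normalized counts without treatment to 10910 ± 381 with ATRA (n = 3). All 6 together summed to 127 to 149.6 in untreated libraries, so some may have passed the expression filter only through the treated groups. They were also listed with earlier results of these data known, so their rise is a description and not a test. All 10 markers of a myeloid leukaemia line were expressed, whereas 0 of 6 erythroid and 0 of 6 epithelial markers, 1 of 6 lymphoid and 2 of 6 fibroblast markers reached a mean of 10 normalized counts. The summed erythroid markers stayed at or under 12.3 normalized counts per library and the epithelial ones at or under 16.5. Lymphoid markers summed to 22.2 to 26.8 in untreated cells and to 39.9 to 53.7 over the 2 combinations, and fibroblast markers to between 66.3 and 114 in all libraries. Untreated replicate 4 had the highest untreated value of all 10 genes, so each call of these genes against untreated cells is also given without it. Calls of the other genes named are given only with it. Mitochondrial transcripts made up between 6.016% and 9.208% of the reads, with 7.073% or more in each library of the 2 combinations, and their part in the results was not tested. The labels do not say whether replicates came from separate cultures, so that p-values may measure technical spread only.

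Of the 10 genes, 7 lie on chromosome 1 (GRCh38, GENCODE release 29) within 1567 kb. S100A9, S100A12, S100A8, S100A6 and S100A4 follow each other from 153357854 to 153550136, a stretch of 192.3 kb, and S100A10 and S100A11 lie together between 151982915 and 152047907. S100P lies on chromosome 4, ANXA1 on chromosome 9 and ANXA2 on chromosome 15. Between these S100 groups stands the epidermal differentiation complex, and 0 of the 15 keratinocyte genes matched there reached a mean of 10 normalized counts. Overlapping genes had few reads: S100A3, which overlaps S100A4 on the same strand, had at most 6.44 normalized counts, and the antisense genes over S100A6 and S100A11 had at most 3.86 and 0.

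The promoters of the 4 genes called in at least 1 comparison are shown because they differ in base composition and motifs, as RefSeq gives them for GRCh38.p14. Each run holds the 250 bases before the start, 5′ to 3′ on the strand of the gene, and capitals mark matches on either strand to the motifs of CEBP factors (letters TTGCNNAA), of the heat shock element core (letters GAANNTTC) and of the TATA box (letters TATAAA), or to the AP-1 motif, which reads TGA and, after any base, TCA.
ANXA1 (chr9:73151615-73151864, + strand): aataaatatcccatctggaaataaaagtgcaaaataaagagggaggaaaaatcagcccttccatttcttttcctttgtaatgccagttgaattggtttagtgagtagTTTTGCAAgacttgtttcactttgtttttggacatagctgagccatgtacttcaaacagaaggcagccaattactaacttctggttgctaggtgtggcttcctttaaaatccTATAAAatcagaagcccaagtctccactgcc
ANXA2 (chr15:60397987-60398236, − strand): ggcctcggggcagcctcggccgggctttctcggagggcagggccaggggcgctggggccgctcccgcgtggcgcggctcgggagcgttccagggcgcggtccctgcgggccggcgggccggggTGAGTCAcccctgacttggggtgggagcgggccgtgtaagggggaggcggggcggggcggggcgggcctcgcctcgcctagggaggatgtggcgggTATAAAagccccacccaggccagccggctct
S100A8 (chr1:153391189-153391438, − strand, the most upstream of 3 listed starts): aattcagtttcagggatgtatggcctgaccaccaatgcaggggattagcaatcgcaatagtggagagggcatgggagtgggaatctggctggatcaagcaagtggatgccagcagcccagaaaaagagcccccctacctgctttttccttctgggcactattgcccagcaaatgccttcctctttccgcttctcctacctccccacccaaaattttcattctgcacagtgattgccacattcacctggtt
S100A12 (chr1:153375622-153375871, − strand): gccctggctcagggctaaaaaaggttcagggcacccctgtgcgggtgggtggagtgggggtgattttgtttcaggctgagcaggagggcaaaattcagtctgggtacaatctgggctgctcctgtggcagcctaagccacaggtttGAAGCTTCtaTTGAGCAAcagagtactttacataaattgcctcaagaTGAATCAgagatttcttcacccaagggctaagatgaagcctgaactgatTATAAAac

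The ANXA1 window held 38.4% G and C and the ANXA2 window 78%, against a median of 58% over all 35116 promoters. TATAAA stood in the windows of 6 of the 10 genes, S100A4, S100A9, S100A12, S100P, ANXA1 and ANXA2, and in 10.7% of all promoters. In S100A8 it stood before the other 2 listed starts. The AP-1 letters occurred in S100A12 and ANXA2 (6.57% of all promoters) and the CEBP letters in S100A11, S100A12 and ANXA1 (9.05%). The heat shock letters occurred in S100A12 (5.78%). The retinoid receptor half-site AGGTCA was found in S100A4 alone among the 10 (12.1%), the GC box GGGCGG in 5 of them (42.6%) and the antioxidant response core TGACNNNGC in 0 (10.9%). None of these matches shows binding.

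A gene was called when limma gave an adjusted p under 0.05 and the change passed 1.5-fold, that is, 0.585 on the log2 scale. All 10 genes passed the filter of a mean of 10 normalized counts and were tested among 14643 genes. With either retinoid alone none of the 10 was called. In the combinations ANXA1 rose and S100A8 and S100A12 fell against untreated cells, and against the retinoid alone ANXA2 rose with both and ANXA1 with ATRA. Changes of cell number and of RNA per cell cannot be told apart in such bulk samples. The changes of the 10 transcripts with their intervals show the 2 annexins to the right of 0 in every panel with inhibitors and S100A8 to the left of 0 in every panel.

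**Figure D1:**
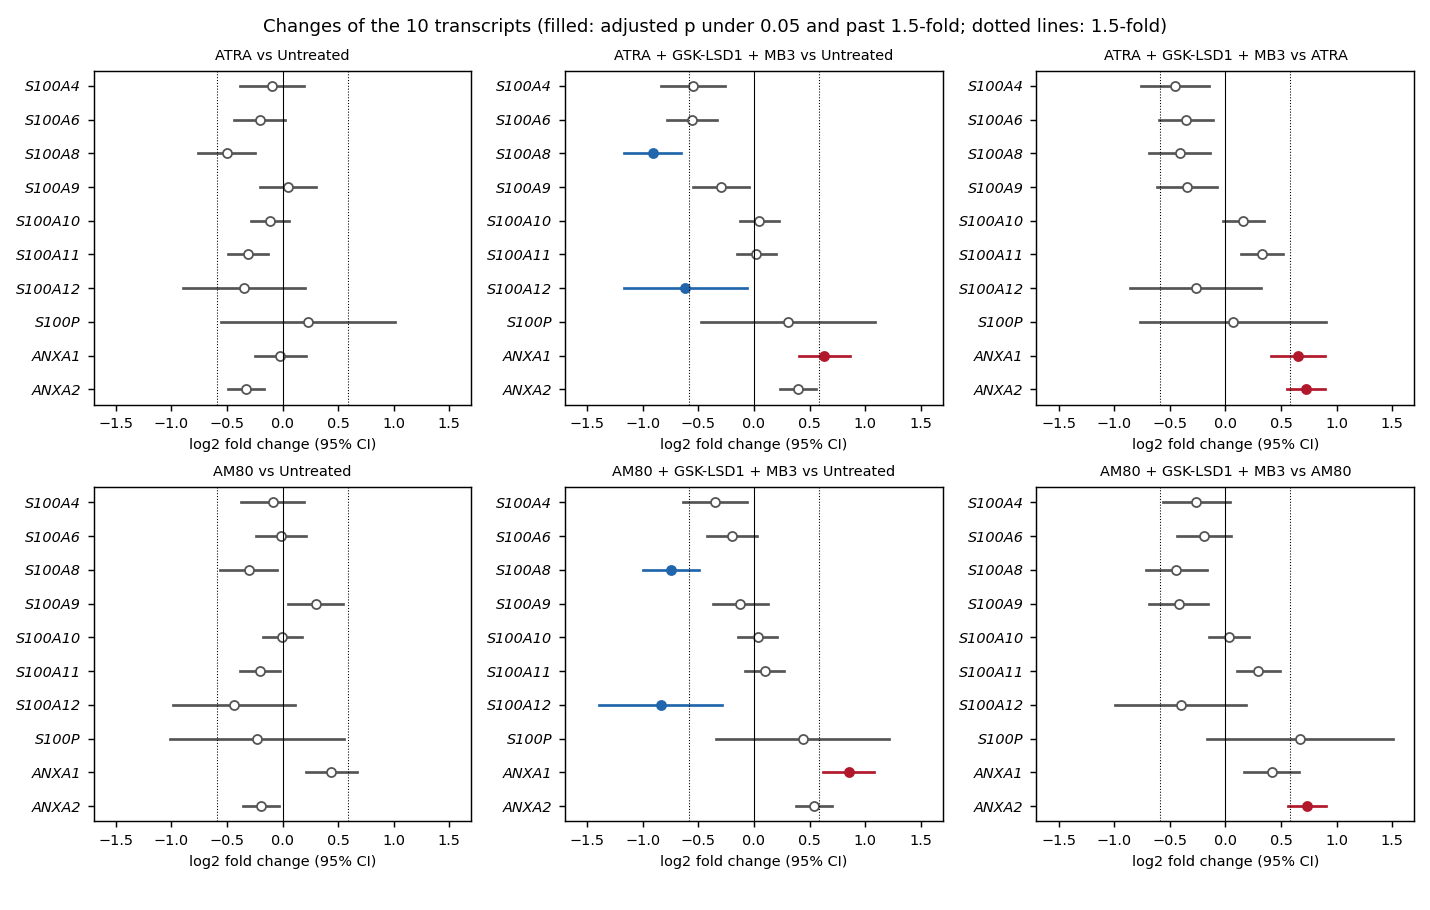
Log2 fold change of each of the 10 transcripts (point) with its 95% confidence interval (line) in 6 comparisons, from limma on log2(normalized count + 1). Filled red and blue points are higher and lower calls, open points are not called, and dotted lines mark 1.5-fold. ANXA2 against the retinoid alone stood at 0.73 in both panels on the right, and S100A8 in the ATRA combination at −0.91 against untreated cells.

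In the combinations the share of the 10 genes called was near that of all genes. With ATRA, 0 of 10 were higher and 0 lower, where 6.52% and 2.94% of all genes were called; edgeR and DESeq2 also called 0, and 3 of the 10 had an unadjusted p under 0.05. With AM80, 0 of 10 were higher and 0 lower, where 6.41% and 3.76% of all genes were called, again with 0 by edgeR and DESeq2 and with 5 at an unadjusted p under 0.05. In the ATRA combination against untreated cells 1 was higher and 2 were lower (14.2% and 14.8% of all genes), and in the AM80 combination also 1 and 2 (12.9% and 13.1%). Against the retinoid alone the inhibitors gave 2 higher and 0 lower beside ATRA (8.15% and 11.4% of all genes) and 1 higher and 0 lower beside AM80 (6.81% and 8.90%), and at an unadjusted p under 0.05 there were 7 and 5 of the 10. Both edgeR and DESeq2 called 2 and 1 there. By the adjusted p alone, with no limit on the fold, 3 of 10 passed with ATRA (24.6% of all genes), 1 with AM80 (28.8%), 7 in the ATRA combination (60.2%), 5 in the AM80 combination (54.7%), 7 on adding the inhibitors to ATRA (49.3%) and 5 on adding them to AM80 (39.5%). The median log2 change of the 10 genes was −0.16 with ATRA and −0.14 with AM80, −0.14 and −0.05 in the combinations against untreated cells, and −0.10 and −0.08 against the retinoid alone. The median of all genes was between −0.020 and −0.003 in these 6 comparisons. The 4 comparisons with untreated cells share the same 4 control libraries.

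**Figure D2:**
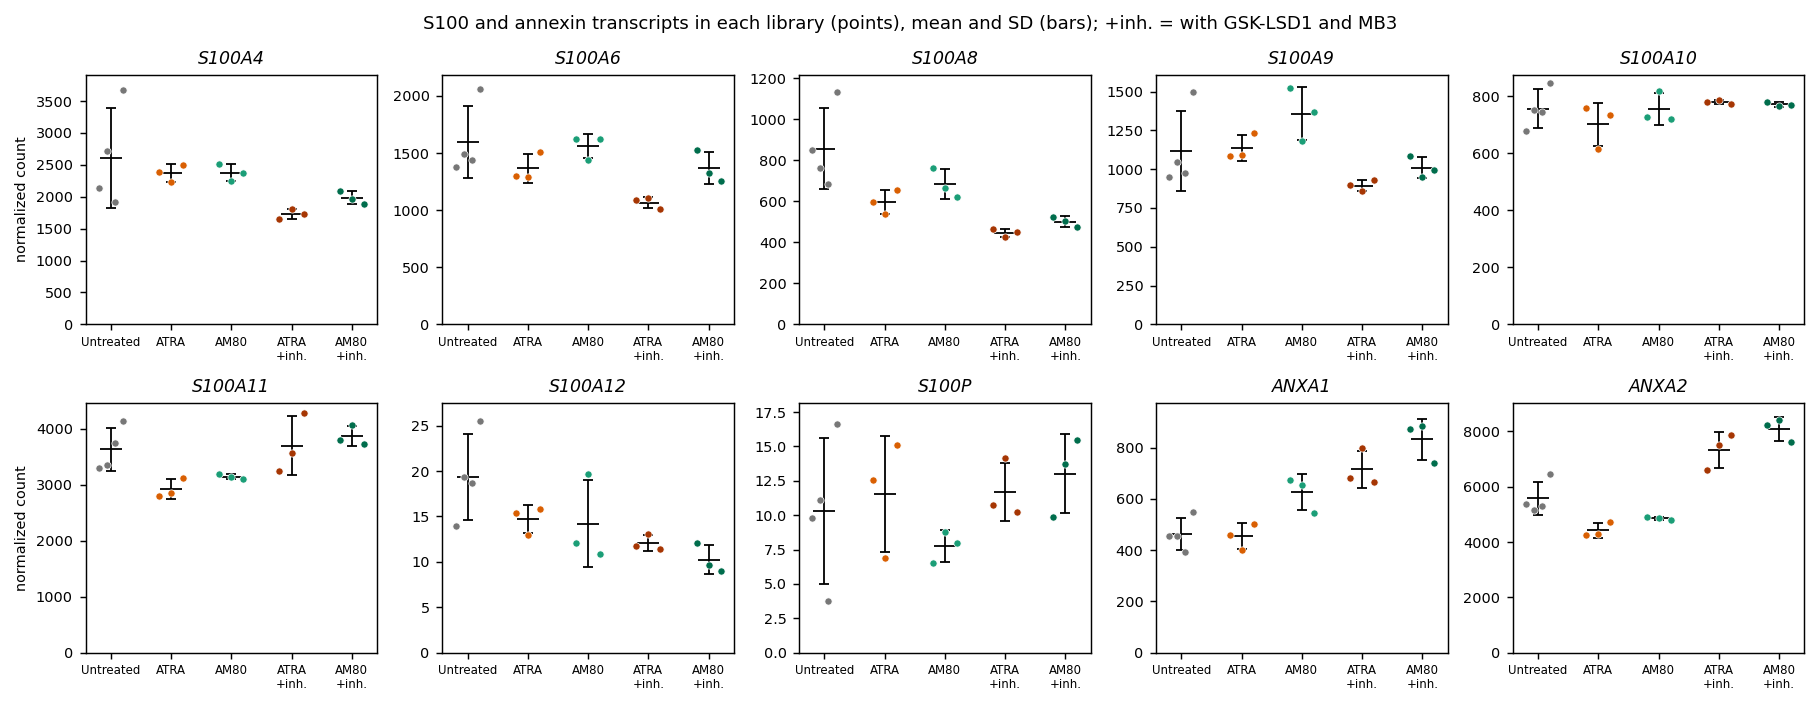
Normalized counts of the 10 transcripts in each library (points, by condition), with the mean and SD of each condition (black bars, n = 4 untreated and n = 3 in each treatment); each panel has its own linear axis from 0. ANXA1 and ANXA2 are highest in the combinations, S100A8 is lowest there, and S100A10 lies between 613 and 848 in all 16 libraries.

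ANXA2, the membrane-binding subunit of the plasminogen-binding complex, rose when the inhibitors were added to either retinoid. In untreated cells its normalized counts were 5369, 5160, 5322 and 6454. With ATRA they were 4253, 4294 and 4721, and with AM80 4909, 4880 and 4789. Every library of either retinoid alone was below every untreated library. In the ATRA combination the counts were 6594, 7495 and 7878, and in the AM80 combination 8236, 8416 and 7610. All 6 combination libraries were above all untreated libraries. Adding the inhibitors raised ANXA2 1.65-fold beside ATRA (log2 0.73 ± 0.08 SE, adjusted p = 6.98e-07) and 1.66-fold beside AM80 (log2 0.73 ± 0.08, adjusted p = 6.78e-07). Against untreated cells the combinations stood at 0.40 (adjusted p = 0.000179) and 0.54 (adjusted p = 5.31e-06) on the log2 scale, under the fold limit, and ATRA alone at −0.33 (adjusted p = 0.00285). Without untreated replicate 4 the AM80 combination reached 0.61 against untreated cells (adjusted p = 3.01e-08) and was called. With scaling to total reads the ATRA value of 0.58 against the retinoid, and with quantile normalization the AM80 value of 0.58, fell just short of the fold limit.

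ANXA2 has processed copies elsewhere in the genome, so reads may be shared. The 5 matched copies of members were ANXA2P1, ANXA2P2 and ANXA2P3 of ANXA2, and S100A11P1 and S100A11P2 of S100A11. Only ANXA2P2 passed the filter. Its normalized counts were 71.1 to 79.8 in untreated cells, 49.0 to 70.4 with the retinoids and 82.0 to 121 in the combinations. It was called higher on adding the inhibitors to ATRA (log2 0.71 ± 0.16, adjusted p = 0.00135) and to AM80 (log2 0.64 ± 0.16, adjusted p = 0.00399). The share of these reads that came from ANXA2 itself was not tested.

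S100A10, the calcium-independent S100 partner of ANXA2 in the complex, had no call in any comparison. Its normalized counts were 679, 752, 746 and 848 in untreated cells, 757, 613 and 733 with ATRA and 726, 819 and 720 with AM80. The combinations gave 779, 788 and 773 with ATRA and 779, 766 and 767 with AM80. The untreated range covered all but 1 of the treated libraries, ATRA replicate 2. The log2 changes against untreated cells lay between −0.11 and 0.05, with −0.10 and −0.15 in the combinations when scaled to total reads, and the interval in the ATRA combination against ATRA was −0.02 to 0.34, inside the fold limit.

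The 2 transcripts of the complex were also set against each other. The ratio of ANXA2 to S100A10 normalized counts, looked at after the values of both genes were known and given without a test, was 7.38 ± 0.47 in untreated cells (SD, n = 4), 6.36 ± 0.70 with ATRA and 6.46 ± 0.43 with AM80 (n = 3 each). It was 9.39 ± 0.87 in the ATRA combination and 10.5 ± 0.54 in the AM80 combination. The lowest combination library, at 8.46, was above the highest of the other 10, at 7.91. These ratios are not corrected for gene length. Per kilobase of annotated exon the ratio was 1.38, 1.2, 1.25 and 1.33 in the untreated libraries.

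**Figure D3:**
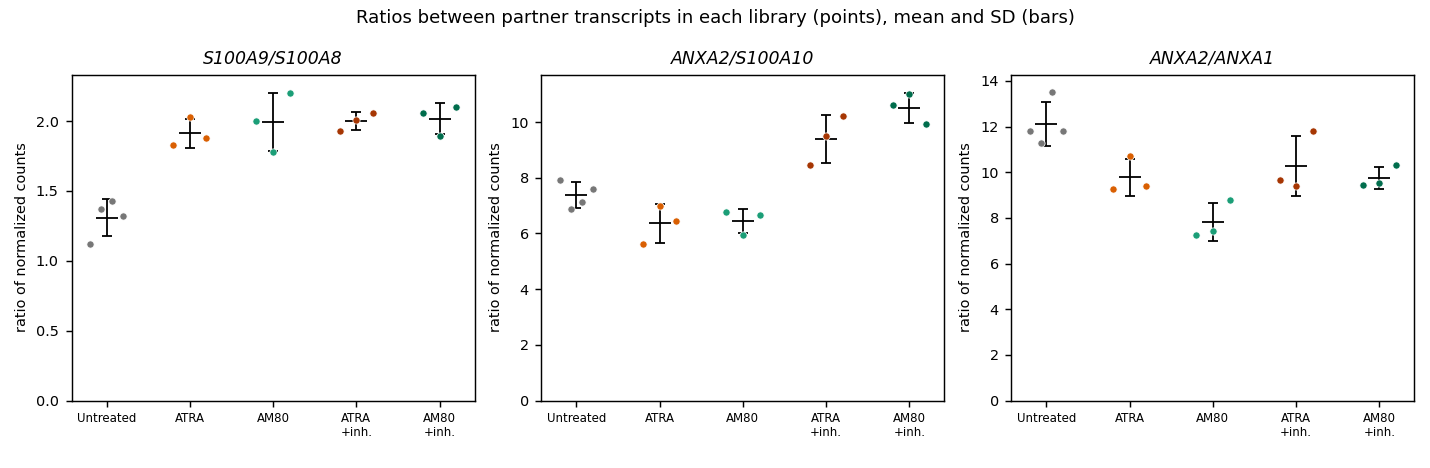
Ratio of normalized counts of S100A9 to S100A8, ANXA2 to S100A10 and ANXA2 to ANXA1 in each library (points), with the mean and SD of each condition (n = 4 untreated, n = 3 in each treatment); axes start at 0. S100A9 to S100A8 lies at 1.12 to 1.43 in untreated cells and at 1.78 or more in every treated library. The ratios are not corrected for gene length.

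ANXA1, the ligand of formyl peptide receptors, was the only member called higher against untreated cells. Its normalized counts in untreated cells were 456, 455, 394 and 547. With ATRA they were 460, 402 and 504, inside the untreated range, and with AM80 676, 656 and 545. Combined with the inhibitors, ATRA gave 682, 799 and 665 and AM80 gave 873, 885 and 742. Every combination library was above every untreated library and every ATRA library. The rise against untreated cells was 1.55-fold in the ATRA combination (log2 0.63 ± 0.11, adjusted p = 5.49e-05) and 1.80-fold in the AM80 combination (log2 0.85 ± 0.11, adjusted p = 1.57e-06). Both were called without untreated replicate 4 too, at 0.715 (adjusted p = 2.95e-06) and 0.935 (adjusted p = 6.22e-08). The inhibitors raised it 1.57-fold beside ATRA (log2 0.65 ± 0.12, adjusted p = 0.00014), and beside AM80 the value was 0.42 ± 0.12 (adjusted p = 0.00834), under the fold limit. AM80 alone gave 0.44 ± 0.11 (adjusted p = 0.00477) and ATRA alone −0.02 ± 0.11 (adjusted p = 0.919).

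The calls of ANXA1 in the ATRA combination lay close to the fold limit. Against untreated cells the value was 0.56 without untreated replicate 3 and 0.55 without replicate 2 of the ATRA combination. Against ATRA it was 0.57 without ATRA replicate 2 and 0.57 without replicate 2 of the combination. Each of these was under 0.585, with adjusted p between 0.000246 and 0.00194. With scaling to total reads the 2 values were 0.48 and 0.51 and not called. That scaling placed the median of all genes at −0.15 in the ATRA combination and −0.19 in the AM80 combination against untreated cells, and relative to that median ANXA1 stood at 0.63 and 0.85.

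S100A8, a subunit of calprotectin, fell in both combinations. Its normalized counts were 849, 761, 684 and 1133 in untreated cells, 595, 537 and 656 with ATRA and 763, 662 and 623 with AM80. They were 464, 426 and 450 in the ATRA combination and 525, 503 and 475 in the AM80 combination. All 6 combination libraries were below every library of the other 3 conditions. The level fell to 0.531 of the untreated level in the ATRA combination (log2 −0.91 ± 0.12, adjusted p = 2.23e-06) and to 0.596 in the AM80 combination (log2 −0.75 ± 0.12, adjusted p = 2.82e-05). Against the retinoid alone the values were −0.41 (adjusted p = 0.0133) and −0.44 (adjusted p = 0.0107), under the fold limit. ATRA alone gave −0.50 ± 0.12 (adjusted p = 0.00403) and AM80 alone −0.31 ± 0.12 (adjusted p = 0.0665). Without untreated replicate 4 the combinations stood at −0.77 (adjusted p = 2.32e-07) and −0.60 (adjusted p = 7.16e-06) and were still called, while ATRA alone stood at −0.36 (adjusted p = 0.00515) and AM80 alone at −0.16 (adjusted p = 0.185). Without untreated replicate 3 the ATRA value was −0.60 (adjusted p = 0.000676), past the fold limit.

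S100A9, the other subunit of calprotectin, was not called in any comparison. Its normalized counts were 948, 1045, 978 and 1501 in untreated cells, 1087, 1089 and 1235 with ATRA and 1525, 1181 and 1367 with AM80. The combinations gave 895, 858 and 928 with ATRA and 1083, 948 and 997 with AM80. All 3 libraries of the ATRA combination lay below the other 13, and the AM80 combination lay inside the untreated range. Adding the inhibitors gave −0.35 ± 0.13 beside ATRA (adjusted p = 0.0301) and −0.42 ± 0.13 beside AM80 (adjusted p = 0.0124) on the log2 scale. Against untreated cells AM80 gave 0.30 (adjusted p = 0.0678) and the ATRA combination −0.30 (adjusted p = 0.0369). Both depended on untreated replicate 4: without it AM80 gave 0.45 (adjusted p = 0.000172) and the ATRA combination −0.15 (adjusted p = 0.128).

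The 2 calprotectin transcripts were compared in the same way. The S100A9 to S100A8 ratio of normalized counts, also chosen after the values were seen and not tested, was 1.12, 1.37, 1.43 and 1.32 in untreated cells. It was 1.91 ± 0.11 with ATRA, 1.99 ± 0.21 with AM80, 2 ± 0.066 in the ATRA combination and 2.02 ± 0.11 in the AM80 combination (SD, n = 3 each). Untreated replicate 4, high for both genes, had a ratio inside the range of the other untreated libraries. The means of the 4 treated groups differed from each other by less than the largest SD among them. Per kilobase of annotated exon the ratio was 1.95, 2.39, 2.49 and 2.31 in the untreated libraries.

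S100A12, a granulocyte relative of calprotectin, was near the lower limit of the test, with 7 to 38 reads per library. Its normalized counts were 13.95, 19.4, 18.7 and 25.5 in untreated cells, 15.4, 12.9 and 15.85 with ATRA and 12.1, 19.7 and 10.85 with AM80. Combined with the inhibitors, ATRA gave 11.72, 13.04 and 11.37 and AM80 gave 12.1, 9.62 and 9.01. All 6 combination libraries were below the 4 untreated ones. It was called lower in the AM80 combination against untreated cells (log2 −0.84 ± 0.26, adjusted p = 0.0106) and in the ATRA combination (log2 −0.62 ± 0.26, adjusted p = 0.0496). The second call sat at the threshold and was lost on leaving out any 1 of 13 of the 16 libraries, with adjusted p between 0.0227 and 0.152 over all 16; it was kept only without untreated replicate 1, AM80 replicate 2 or AM80 replicate 3. The DESeq2 test on recovered reads called neither (adjusted p = 0.117 and 0.0521), and without untreated replicate 4 the ATRA combination gave −0.48 (adjusted p = 0.152) and the AM80 combination −0.70 (adjusted p = 0.0397).

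S100A4, a binder of non-muscle myosin tied to cell motility, and S100A6, a partner of the calcyclin-binding protein CACYBP, lie near each other on chromosome 1. The normalized counts of S100A4 were 2134, 2719, 1924 and 3673 in untreated cells, 2382, 2230 and 2503 with ATRA and 2514, 2245 and 2379 with AM80. They were 1652, 1804 and 1731 in the ATRA combination and 2091, 1972 and 1891 in the AM80 combination. The ATRA combination was below all untreated libraries, while the AM80 combination overlapped them. Those of S100A6 were 1382, 1489, 1440 and 2062 in untreated cells, 1299, 1290 and 1509 with ATRA and 1626, 1443 and 1622 with AM80. The combinations gave 1085, 1104 and 1012 with ATRA and 1529, 1326 and 1258 with AM80. The same picture held, with the ATRA combination below and the AM80 combination across the untreated range.

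In the ATRA combination S100A4 stood at −0.55 ± 0.14 (adjusted p = 0.00169) and S100A6 at −0.56 ± 0.11 (adjusted p = 0.000158) against untreated cells, so that both passed the adjusted p and missed the fold limit narrowly. The edgeR test called both, at −0.61 (adjusted p = 0.00108) and −0.59 (adjusted p = 0.000166), and DESeq2 called S100A4. Both were also called with quantile normalization (−0.70 and −0.68) and with scaling to total reads (−0.70 and −0.71). Without untreated replicate 4, which was the highest library for both, the values were −0.37 (adjusted p = 0.000998) and −0.43 (adjusted p = 5.74e-05). Leaving out another library brought some past the limit: S100A4 was −0.63 without untreated replicate 1 and −0.68 without replicate 3, and S100A6 was −0.62, −0.59 and −0.60 without untreated replicates 1, 2 and 3 and −0.59 without replicate 2 of the ATRA combination. In the AM80 combination S100A4 gave −0.35 (adjusted p = 0.0349), or −0.17 without untreated replicate 4 (adjusted p = 0.103), and S100A6 gave −0.20 (adjusted p = 0.121), or −0.07 without that library (adjusted p = 0.455).

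S100A11, which binds ANXA1 and takes part in membrane repair, had the highest level per length. Its normalized counts were 3295, 3359, 3737 and 4131 in untreated cells, 2801, 2850 and 3122 with ATRA and 3194, 3144 and 3095 with AM80. Combined with the inhibitors, ATRA gave 3246, 3566 and 4277 and AM80 gave 3806, 4068 and 3718. All 6 retinoid libraries were below the untreated ones, and both combinations overlapped the untreated range. ATRA gave −0.31 ± 0.09 against untreated cells (adjusted p = 0.0111), and the inhibitors gave 0.33 ± 0.09 beside ATRA (adjusted p = 0.00559) and 0.30 ± 0.09 beside AM80 (adjusted p = 0.0142), all under the fold limit. The last 2 no longer passed the adjusted p with quantile normalization (0.15 and 0.14, adjusted p = 0.161 and 0.229) or scaling to total reads (0.18 and 0.17, adjusted p = 0.0711 and 0.1). Against untreated cells its combination values of 0.02 and 0.10 turned to −0.17 and −0.11 with quantile normalization and to −0.13 and −0.09 with scaling to total reads, none of them past the adjusted p.

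S100P, a relative best known from epithelial tumours, had 3 to 21 reads per library. Its normalized counts were 9.76, 11.1, 3.74 and 16.6 in untreated cells, 12.5, 6.90 and 15.1 with ATRA and 6.498, 8.802 and 7.956 with AM80. They were 10.7, 14.1 and 10.2 in the ATRA combination and 9.87, 13.7 and 15.4 in the AM80 combination. All treated libraries lay inside the untreated range. At this depth no difference was detectable: the log2 value was largest on adding the inhibitors to AM80, at 0.67 with an interval of −0.170 to 1.504.

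Apart from the ratios of normalized counts above, levels of different genes were set side by side only per kilobase of exon (union of annotated exons). In untreated cells S100A11 led with 5339 ± 568 normalized counts per kilobase (SD, n = 4), followed by S100A4 with 2549 ± 764, S100A9 with 1938 ± 448 and S100A6 with 1641 ± 325. S100A8 with 852 ± 195, ANXA2 with 632 ± 67.1, S100A10 with 490 ± 44.9 and ANXA1 with 101 ± 13.9 followed, and S100A12 with 37.4 ± 9.14 and S100P with 8.05 ± 4.13 were lowest. The SDs of S100A4, S100A9 and S100A6 overlapped, as did those of S100A8 and ANXA2, but each gene in this order was above the next in 4 of 4 untreated libraries. The exon union of ANXA2 is long, at 8824 bases against 3528 for its longest transcript. By the longest transcript ANXA2 stood at 1581 per kilobase, above S100A8 at 1195, and S100A6 at 2367, above S100A9 at 1938.

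The 2 retinoids were given at the same dose and for the same time, so that AM80 could be compared directly with ATRA. None of the 10 genes was called by limma, edgeR or DESeq2, where 0.0478% of all genes were called without inhibitors and 0% with them by limma. Without inhibitors 2042 of the 14643 genes tested had an unadjusted p under 0.05, and of the 10 only ANXA1. It was 0.46 higher with AM80 (95% confidence interval 0.21 to 0.70, adjusted p = 0.0900), with all 3 AM80 libraries above all 3 ATRA libraries. This difference passed the adjusted p, but not the fold limit, with DESeq2 (0.45, adjusted p = 0.0177) and without untreated replicate 4 (0.46, adjusted p = 0.0214). With edgeR it gave 0.47 (adjusted p = 0.0588). Over the 16 limma fits that each left out 1 library, its adjusted p ran from 0.0214 to 0.595, and it was never called. With the inhibitors 2656 of the 14643 genes had an unadjusted p under 0.05, and of the 10 only S100A6. S100A6 was 0.36 higher with AM80 (interval 0.12 to 0.60, adjusted p = 0.161). Its difference passed the adjusted p, but not the fold limit, without untreated replicate 4 (0.36, adjusted p = 0.027). It did not pass with DESeq2 (0.36, adjusted p = 0.106) or edgeR (0.35, adjusted p = 0.212). With each library left out in turn, the limma adjusted p of S100A6 ran from 0.027 to 0.535. The ANXA1 difference with the inhibitors was 0.22 (interval −0.03 to 0.47). For S100A4, S100A8, S100A9, S100A10, S100A11 and ANXA2 both intervals lay inside the 1.5-fold limit, the widest reaching 0.52 for S100A9 without inhibitors. The intervals of S100A6 with inhibitors, and of S100A12 and S100P, reached past that limit. The interaction is the inhibitor effect beside AM80 minus that beside ATRA. An unadjusted p under 0.05 for it was found in 0 of the 10 and in 2211 of the 14643 genes. The interaction was called for 0 of the 10 (0% of all genes), and also for 0 by edgeR and DESeq2. It was 0.01 for ANXA2 (interval −0.23 to 0.25) and −0.24 for ANXA1 (interval −0.59 to 0.11).

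**Figure D4:**
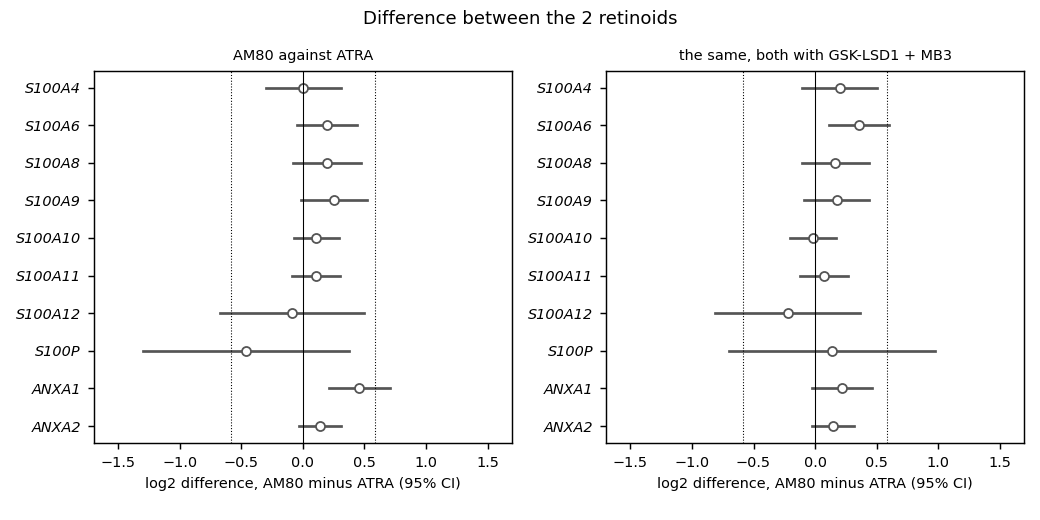
Log2 difference between AM80 and ATRA for each of the 10 transcripts (point) with its 95% confidence interval (line), without inhibitors (left) and with GSK-LSD1 and MB3 in both (right); dotted lines mark 1.5-fold and no point is called. ANXA1 on the left, at 0.46, and S100A6 on the right, at 0.36, have intervals that leave out 0.

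Genes of the plasminogen system, on which the ANXA2 and S100A10 complex acts, were listed with the members. Of 6 genes 4 were tested, and 2 were higher and 1 lower in each combination against untreated cells, where 14.2% and 14.8% of all genes were called in the ATRA combination and 12.9% and 13.1% in the AM80 combination. PLAUR, the urokinase receptor, stood at 620 ± 66.4 (SD, n = 4) normalized counts without treatment, at 891 ± 36.7 with ATRA and at 889 ± 105 with AM80 (n = 3 each). It rose to 3357 ± 515 in the ATRA combination and 4550 ± 466 in the AM80 combination (adjusted p = 8.46e-11 and 2.84e-12 against the retinoid alone). SERPINB2, an inhibitor of plasminogen activators, rose from 79.97 ± 9.29 in untreated cells to 133 ± 20.2 with AM80 (adjusted p = 0.000394), and to 536 ± 103 and 638 ± 43.0 in the combinations. PLAU, the urokinase itself, fell against untreated cells from 146.7 ± 11.96 to 95.9 ± 1.58 and 90.9 ± 9.70. The median log2 change of the 4 was 1.20 and 1.47 in the combinations against untreated cells.

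**Figure D5:**
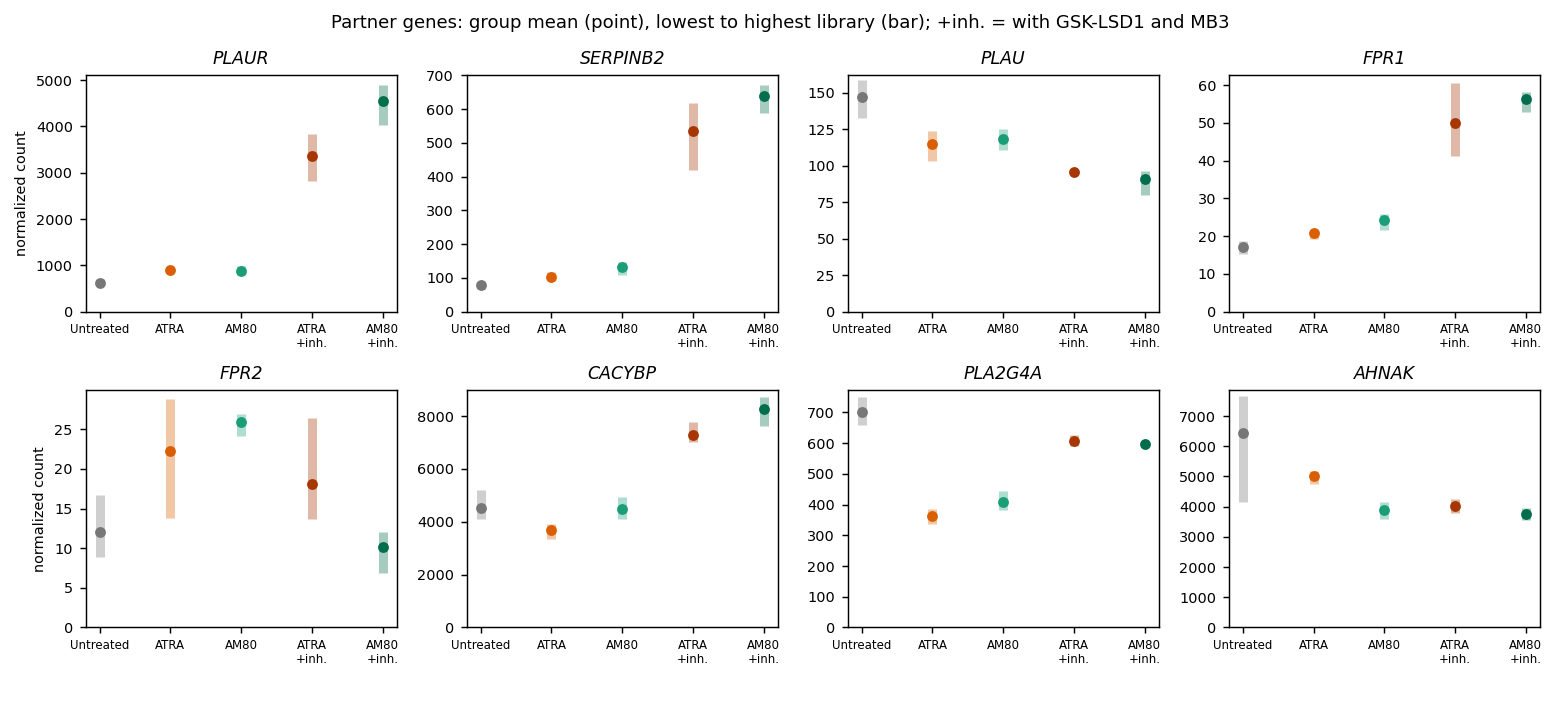
Normalized counts of 8 partner genes by condition: the point is the group mean and the bar runs from the lowest to the highest library (n = 4 untreated, n = 3 in each treatment), with linear axes from 0. PLAUR, SERPINB2, FPR1 and CACYBP are highest in the combinations, and PLA2G4A is lowest with the retinoids alone.

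Among 6 receptors and partners of annexins 4 were tested. FPR1, the formyl peptide receptor that ANXA1 binds, had 17.1 ± 1.46 normalized counts in untreated cells, 20.8 ± 1.33 with ATRA and 24.2 ± 2.22 with AM80. It rose to 49.9 ± 9.79 in the ATRA combination and 56.2 ± 2.97 in the AM80 combination (adjusted p = 5.44e-07 and 1.08e-07 against untreated cells). FPR2, its relative, was called higher with AM80 (25.9 ± 1.56 against 12.1 ± 3.46 in untreated cells, adjusted p = 0.0105). It was called lower again when the inhibitors were added to AM80 (10.2 ± 2.87, adjusted p = 0.00328). Between AM80 and ATRA without inhibitors 0 of the 4 were called (0.0478% of all genes), so the FPR2 calls do not show a difference between the retinoids. PLA2G4A, the cytosolic phospholipase A2 that ANXA1 is known to inhibit, fell from 702 ± 38.5 to 363 ± 25.3 with ATRA and 407 ± 33.5 with AM80, and stood at 606 ± 17.9 and 598 ± 6.08 in the combinations. DYSF, a membrane repair protein, rose with both retinoids, from 37.4 ± 10.1 to 64.4 ± 19.4 and 57.5 ± 3.18.

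All 9 receptors and intracellular partners of S100 proteins were tested. In each combination limma called 1 of them higher and 1 lower against untreated cells. The shares of all genes so called were 14.2% and 14.8% with ATRA, and 12.9% and 13.1% with AM80. ATRA alone gave 0 calls (6.52% and 2.94% of all genes), and AM80 alone 1 lower call (6.41% and 3.76%). Adding the inhibitors to ATRA gave 1 call each way (8.15% and 11.4%), and to AM80 only 1 higher call (6.81% and 8.90%). These calls were of CACYBP, AHNAK and AGER. CACYBP, the calcyclin-binding protein that S100A6 grips, rose from 4529 ± 464 normalized counts in untreated cells to 7280 ± 429 in the ATRA combination and 8283 ± 581 in the AM80 combination (adjusted p = 5.60e-07 and 2.02e-08). AHNAK, the large scaffold bound by the ANXA2 and S100A10 complex, had 6432 ± 1578 in untreated cells, from 4157 to 7647, and fell to 3896 ± 275 with AM80, 4034 ± 228 in the ATRA combination and 3749 ± 189 in the AM80 combination. AGER, a cell surface receptor of S100 proteins, was lower in the ATRA combination than with ATRA (39.0 ± 7.24 against 67.5 ± 22.8, adjusted p = 0.00624). By the adjusted p alone 4 of the 9 passed with ATRA, 4 with AM80, 6 in the ATRA combination and 4 in the AM80 combination against untreated cells, where 24.6%, 28.8%, 60.2% and 54.7% of all genes did.

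The rest of the 2 families had little expression or few calls. Of 13 other S100 genes 3 were tested, and S100A1 fell from 67.8 ± 5.29 normalized counts in untreated cells to 37.4 ± 9.16 in the ATRA combination (adjusted p = 0.000104). In the AM80 combination it stood at 57.8 ± 2.47 and was not called. Of 11 other annexins 7 were tested. ANXA3, an annexin of neutrophils, passed the filter only through the treated groups, so its values are a description: 0 to 3.74 normalized counts in untreated libraries, 14.5 ± 2.62 with ATRA, 18.7 ± 4.41 with AM80, 14.5 ± 1.44 in the ATRA combination and 11.8 ± 2.92 in the AM80 combination. The other 6 stayed under the fold limit or missed the adjusted p.

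Of 14 myeloid granule genes 9 were tested. With ATRA 2 were higher and 1 lower (6.52% and 2.94% of all genes), and with AM80 2 and 0 (6.41% and 3.76%). Between AM80 and ATRA 0 of the 9 were called, without inhibitors (0.0478% of all genes) or with them (0%). The values that follow are from the ATRA groups and do not show a difference from AM80. LYZ, the lysozyme gene, fell with ATRA from 11102 ± 916 normalized counts to 6978 ± 240 (adjusted p = 7.36e-08) and stood at 11369 ± 472 in the ATRA combination. MMP8, the neutrophil collagenase, rose with ATRA from 12.5 ± 5.52 to 21.1 ± 2.29 (adjusted p = 0.0374). BPI, a bactericidal granule protein, stood at 6.09 ± 3.01 in untreated cells and 17.4 ± 3.82 with ATRA. It passed the filter only through the treated groups, so its values and calls are a description. ELANE, the neutrophil elastase gene, fell from 2720 ± 622 to 1623 ± 93.3 in the ATRA combination (adjusted p = 0.000872). Against untreated cells limma called 2 of the 9 higher and 3 lower in the ATRA combination (14.2% and 14.8% of all genes). In the AM80 combination it called 2 higher and 0 lower (12.9% and 13.1%), and 4 passed the adjusted p alone (54.7%). The 2 higher genes were BPI and MMP8 in both combinations. Since the filter let BPI in through its treated values, these higher counts are not set against the share of all genes as a result.

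The 2 genes with the most similar pattern were looked up for each of the 4 called members, among 11301 genes whose mean was 50 normalized counts or more, by the root mean square difference of the 4 log2 changes against untreated cells. For ANXA2 they were its copy ANXA2P2, at a difference of 0.04, and VPS37B, at 0.05. ANXA1 was nearest to SELENOK and ZCCHC10 (both 0.07), S100A8 to PPP1R35 and SURF6 (both 0.05), and S100A12 to KLHL42 and REV3L (both 0.03). The 4 changes share the untreated libraries, and no test was made of these differences.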

How the data were processed

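Gene expression of OCI-AML3 cells was measured by RNA-seq in 16 libraries. Per the labels and methods, the authors processed reads with FastQC, cutadapt, STAR and featureCounts on Galaxy and deposited DESeq2-normalized counts, the signal values used here. Build, annotation release and strand setting are not given in the sources used here, and the labels name other RNA and library kits than the methods. Reads were recovered from the deposited signal values with DESeq2 size factors, and 100% were whole within 0.001.

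The fit used log2(normalized count + 1), and genes whose mean fell below 10 normalized counts were left out. All 5 groups entered 1 limma 3.58.1 fit (R 4.3.3, mean-variance trend) with Benjamini-Hochberg adjustment over 14643 genes in each of 9 comparisons. Intervals are 95%. Groups come from the labels. With 3 or 4 libraries a group, replicate pairs had chi-square values of 2.554 to 22.7 per degree of freedom, more than counting noise gives. None therefore held the same reads counted again, but repeat preparations of a culture would not show in this. Pairs with AM80 replicate 2 gave 15.11 and 22.7, and the remaining AM80 pair 4.181. Pairs with untreated replicate 4 gave 14.26 to 20.69. AM80 replicate 2 was also the deepest library, with 33789718 reads. Without it 0 members were called with AM80 against untreated cells, and 1 on adding the inhibitors to AM80. Depth limits precision for genes near 10 normalized counts.

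Named genes were the 10 members, up to 4 called genes per list by largest change, and the 2 nearest in pattern to each called member. Gene lists and members were chosen with earlier results of these data known, so no list p-value is given. A withheld item of one list is not reported here, and that list's counts leave it out. Other settings tried were pseudocounts of 0.5 and 5, the whole table, a mean filter of 50, quantile normalization, scaling to total reads, fits of only the groups compared, edgeR 4.0.16 and DESeq2 1.42.0 on recovered reads, a replicate block, each library left out, other call limits, and length by longest transcript. On simulated data 90% of 50 genes changed 2-fold in the ATRA combination against ATRA were called by limma among 14643 genes. The simulation gave all genes the same spread beyond counting noise, and libraries differed only in depth. The 90% therefore does not carry over to the smaller changes of the members or to libraries such as untreated replicate 4. Figures used Python 3.11.15 and matplotlib 3.10.9.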

Additional observations from a re-analysis of the deposited data

Results flagged for a closer look

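Of the 10 members tested in the 4 untreated libraries, 2 had 1 library far from the others, where chance gives about 1 in 20 groups. S100A6 stood at 2062 normalized counts in untreated replicate 4 against 1382 to 1489 in the other 3, a gap of 0.843 of the range. ANXA2 stood at 6454 there against 5160 to 5369, a gap of 0.839 of the range. The same library was the highest untreated one for the other 8 members too, and the cause was not tested. Without it the untreated mean of S100A6 was 1437 ± 53.5 (SD, n = 3) in place of 1593 ± 316, and that of ANXA2 5284 ± 110 in place of 5576 ± 592.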

How the results depend on the processing

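The number of members called in the 6 comparisons with untreated cells or with the retinoid alone moved with the call limit and the scaling. With no limit on the fold it was 3 with ATRA, 1 with AM80, 7 and 5 in the ATRA and AM80 combinations against untreated cells, and 7 and 5 against the retinoid alone. At an adjusted p under 0.01 and 2-fold it was 0 in both combinations, against untreated cells and against the retinoid alone. The edgeR test called 5 in the ATRA combination against untreated cells in place of 3, and quantile normalization and scaling to total reads 4 each, with S100A4 and S100A6 gained. Quantile normalization called 0 in the AM80 combination against AM80 in place of 1, and scaling to total reads 1 in the ATRA combination against ATRA in place of 2. Leaving out each library gave 0 to 1 with ATRA, 2 to 5 in the ATRA combination against untreated cells, 3 to 4 in the AM80 combination and 1 to 2 in the ATRA combination against ATRA; the outer values came without untreated replicate 3 (1, S100A8), replicate 1 (5, with S100A4 and S100A6) and replicate 4 (4, with ANXA2 gained in the AM80 combination), and without replicate 2 of ATRA or of its combination (1, ANXA1 lost). The value of 2 in the ATRA combination against untreated cells came in 11 of the 16 cases. Scaling to total reads moved the share of higher calls over all genes from 49.0% to 31.9% and from 49.7% to 29.2% in the combinations against untreated cells, from 41.7% to 20.9% and from 43.3% to 26.4% against the retinoid alone, and from 63.0% to 52.8% with AM80. Of 2322 log2 values of members under an alternative 2269 kept their side of the limits, 29 lost a call, 17 gained one, 7 moved past 0 without a call and 0 were reversed. The deviations of same-numbered libraries from their group means had correlations of −0.11 to 0.19 over 30 pairs, 4 of them over 0.1. Differently numbered libraries were not compared in this way, so these values cannot decide whether the numbers pair samples. The replicate block, which in effect drops untreated replicate 4, gave 2 and 4 calls in the ATRA and AM80 combinations against untreated cells in place of 3 and 3, with 2 and 1 against the retinoid alone. Depth limits S100A12 and S100P, with at most 38 reads in a library.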
